A study of Mus musculus with 12 samples.

Results

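The genes described here are 35 genes of DNA repair and the DNA damage checkpoint, chosen by symbol. Probe sets of the array were taken where the platform annotation gives 1 of these symbols alone, as a current symbol or a unique synonym. This found 33 of the 35 genes, with 70 of the 45101 probe sets, among 18161 genes tested; Xrcc2 and Rbbp8 were not analysed here. By role, 14 belong to homologous recombination, 5 to the Fanconi pathway, 5 to mismatch repair, base excision or single-strand break repair and end joining, 8 to the checkpoint and the protection of replication forks, and 1, Rad18, to post-replication repair.

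The tissue was C4-HD, a mammary carcinoma grown in BALB/c mice that received medroxyprogesterone acetate (MPA), a progestin; all groups had carried MPA before any treatment. The 12 arrays fall into 6 groups of 2 arrays. MPA arrays hold tumours still exposed to the progestin. For MFP (mifepristone, a progesterone receptor antagonist), the MPA pellet was taken out at a tumour area of 50 mm2 and 10 mg/kg/day of MFP was given, for 6 h, 12 h, 24 h or 48 h by the sample labels; MFP and MPA tumours thus differ in 2 agents. The last group, named no MPA in its source name, was treated with saline for 48 h. In the protocol, tumours given saline kept their MPA and served as control, so the labels do not settle whether the no MPA tumours still carried it, and the 6 h group is named by the sample labels only. The replicates are called independent with no mention of separate animals, and a p-value here reflects only how far these samples spread. Each array took 200 ng of RNA from tissue fixed in formalin and embedded in paraffin.

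Homologous recombination repairs broken DNA by copying an intact sister chromatid: the ends are trimmed, Brca1, Palb2 and Brca2 load a recombinase onto the exposed strand, and helicases and nucleases resolve the joined molecules. The Fanconi proteins remove crosslinks between the strands and pass the break on to recombination, while mismatch and base excision repair remove single wrong bases. Stalled replication forks are sensed by Atr, which signals through Clspn to Chek1. Many of these genes are known to be transcribed most strongly in cells that are copying their DNA, under E2F factors.

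Promoter sequence is shown for the members whose RefSeq promoter window (GRCm38.p6, 300 bases around a start site) holds E2F-type letters, because E2F factors are known to drive several genes of this class. The letters searched on both strands were TTTGGCGC, TTTCCCGC, TTTGCCGC and TTTCGCGC. Of the 33 members, 27 had a window, and 7 of the 27 (25.9%) held such letters, against 550 of 14461 tested genes with a window (3.8%) and 2.26% of all 32851 windows. Each line gives 30 bases, 5′ to 3′ on the gene's strand, with the matching letters in capitals.
Brca2: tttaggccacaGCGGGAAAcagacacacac
Bard1: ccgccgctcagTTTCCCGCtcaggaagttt
Fancg: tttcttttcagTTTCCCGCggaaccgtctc
Msh6: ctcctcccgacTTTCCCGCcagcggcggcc
Chek2: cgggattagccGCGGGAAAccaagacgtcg
Topbp1: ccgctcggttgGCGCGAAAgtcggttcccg
Clspn: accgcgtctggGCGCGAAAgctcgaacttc

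These stretches lie at chr5:150522442-150522471 (plus strand) for Brca2, chr1:71103163-71103192 (minus) for Bard1, chr4:43010335-43010364 (minus) for Fancg, chr17:87975054-87975083 (plus) for Msh6, chr5:110839820-110839849 (plus) for Chek2, chr9:103305187-103305216 (plus) for Topbp1 and chr4:126556990-126557019 (plus) for Clspn. Counted in bases from the window's start site, the first matching base stood at -209 in Bard1, -168 in Brca2, -152 in Chek2, -129 in Topbp1, -52 in Fancg, 16 in Msh6 and 22 in Clspn. RefSeq lists more than 1 start for some genes, so the sign depends on the start taken. The annotated gene start lies at base 150522297 for Brca2, 110839800 for Chek2, 103305167 for Topbp1 and 43010567 for Fancg. Counted from these starts, the matches in Brca2, Chek2, Topbp1 and Fancg lie downstream, not upstream. That of Bard1 (gene start 71103141) stays upstream. A match of letters is a description, not a binding site. Of these 7 genes, Clspn fell at 12 h of MFP, Brca2 and Clspn at 24 h, and Brca2 and Fancg at 48 h. The values are given below. Bard1, Chek2, Topbp1 and Msh6 passed the test at no time by the probe sets that stand for them. A CCAAT sequence stood in 15 of the 27 windows (55.6%, against 42.0% of tested genes), and the letters TTTGAA, known as the CHR element of genes of mitosis, in 2 (7.4%, against 15.7%).

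All values are log2 ratios, with the average of the 2 MPA arrays on the linear scale as the reference, so a value below 0 is a level below that mean. How far a gene stands above background cannot be read from ratios, so levels of different genes are not compared and the labelled tissue could not be checked against markers by level. Array medians over all probe sets lay between -0.11 and 0.01. Each gene is read from its probe set with the largest SD over the 12 arrays, which favours probe sets with larger changes. Fold changes are differences of group means on the log2 scale with limma's standard error (SE, n = 2 arrays a group), and "rose" and "fell" mean a Benjamini-Hochberg adjusted p under 0.05 over all 18161 genes. The MFP comparisons with MPA share the same 2 MPA arrays and are not independent of each other. In whole tumours, fewer cells that carry an RNA and less RNA per cell cannot be told apart.

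**Figure D1:**
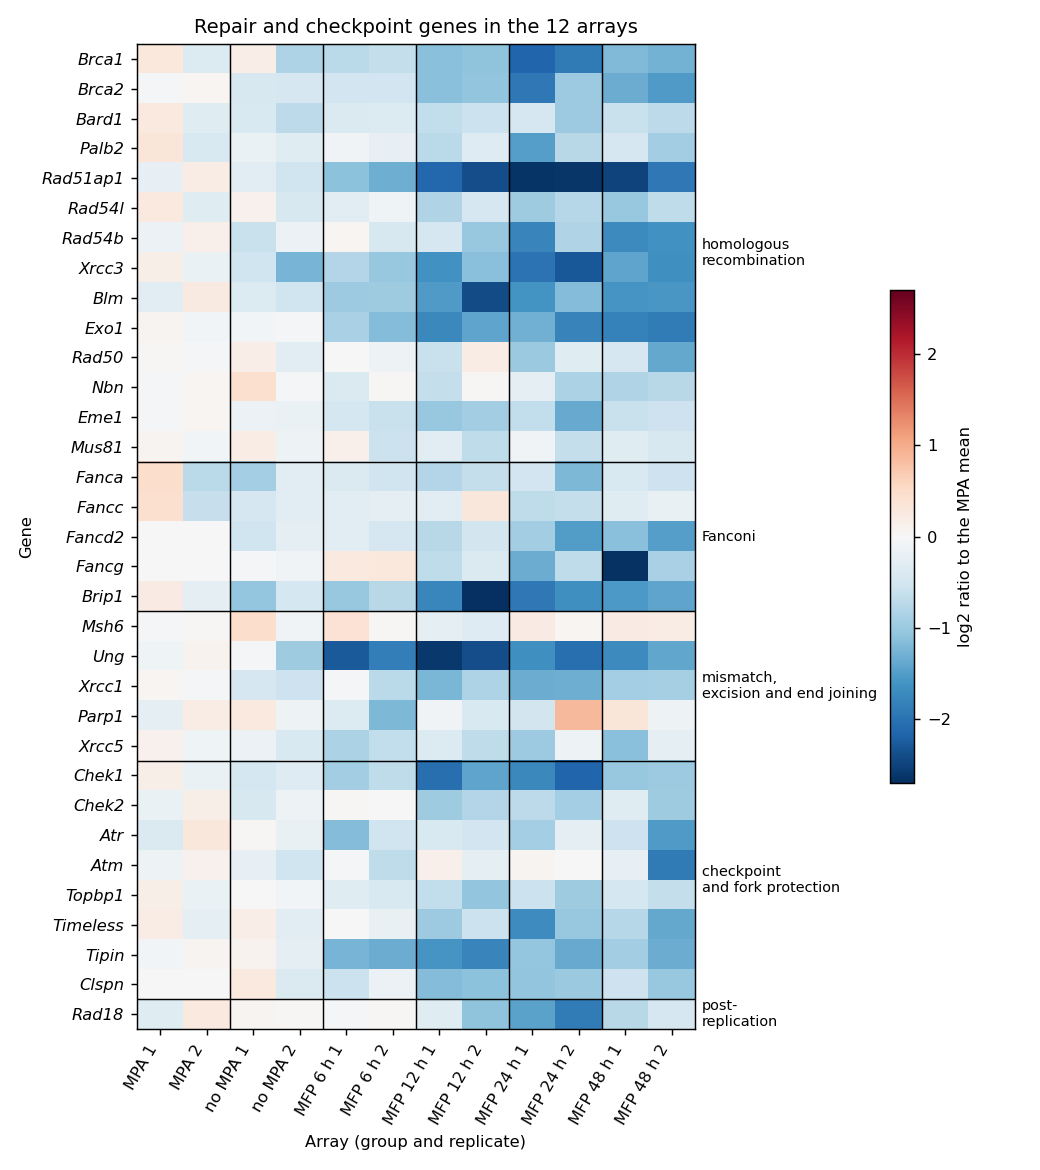
Log2 ratio to the MPA mean of each of the 33 members (rows, grouped by role) in each of the 12 arrays (columns, grouped by treatment and time). The recombination genes Rad51ap1, Brca1 and Xrcc3 and the checkpoint gene Chek1 are lowest in the MFP 24 h arrays or near them, while Msh6 and Atm stay near 0 there.

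At 24 h of MFP, 17 of the 33 members fell and none rose (51.5% fell; of all genes 4.20% fell, 4.55% rose and 8.75% did either). The median change of the members was -1.02, against -0.03 over all genes, and 30 of 33 members lay below 0 (90.9%, against 53% of all genes). The falls were found in every role: 8 of 14 recombination genes (median -1.18), 2 of 5 Fanconi genes (-1.02), 2 of 5 mismatch, excision and end joining genes (-0.56), 4 of 8 checkpoint genes (-0.92) and Rad18. The count of 17 became 10 with MPA replicate 1 left out, 11 with MFP 24 h replicate 2 left out, 2 when only the arrays of MFP 24 h and MPA were fitted, and 1 after quantile normalization, which sets the spread of all arrays equal by construction (an SD over genes of 0.29 and 0.30 in MPA and 0.70 and 0.88 in MFP 24 h as deposited, 0.57 after). The members' median under quantile normalization was -0.86.

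Among the recombination genes, Rad51ap1, which helps the recombinase pair strands, moved the most. Its log2 ratios were -0.23 and 0.20 in MPA, -0.28 and -0.54 in no MPA, -1.11 and -1.31 after 6 h, -2.12 and -2.39 after 12 h, -2.65 and -2.62 after 24 h, and -2.50 and -1.94 after 48 h. In this probe set all 8 MFP arrays lay below all 4 arrays of MPA and no MPA, with no overlap. In another probe set of the gene the no MPA arrays (-1.04 and -1.505) overlapped those at 6 h (-1.12 and -0.31). A different one also had no MPA arrays (-0.90 and -0.06) that overlapped those at 6 h (-0.405 and 0.07). At 24 h the Rad51ap1 change was -2.62 ± 0.25 (adjusted p = 0.000628), a 6.14-fold lower level, and 3 of its 4 probe sets fell while the fourth was at -0.33.

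Xrcc3, a relative of the recombinase that acts with it, was read from a probe set that shares sequence with other transcripts by its type (_x_at). Its ratios were 0.15 and -0.17 in MPA, -0.53 and -1.25 in no MPA, -0.80 and -1.02 after 6 h, -1.63 and -1.12 after 12 h, -2.00 and -2.28 after 24 h, and -1.42 and -1.65 after 48 h. Both MPA arrays were above every other array, and the no MPA arrays overlapped those at 6 h and 12 h. The 24 h change was -2.13 ± 0.28 (adjusted p = 0.00244), but the gene's other probe set stood at 0.13, so the fall of Xrcc3 rests on 1 of 2 probe sets here and at every other time.

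Exo1, the exonuclease that trims broken ends and also serves mismatch repair, fell at 24 h by -1.55 ± 0.23 (adjusted p = 0.00338). Its ratios were 0.07 and -0.07 in MPA and -0.07 and -0.03 in no MPA, against -1.30 and -1.80 after 24 h. At 24 h 2 of its 3 probe sets fell and the remaining one was at -0.35. That one stood at -0.27 and -0.13 after 48 h, against 0.21 and -0.25 in MPA. In the other that fell, the no MPA arrays (-0.23 and -1.01) overlapped those at 6 h (-1.52 and -0.585). Brca1, a subunit of the ubiquitin ligase that directs breaks to recombination, stood at 0.29 and -0.36 in MPA, -1.13 and -1.09 after 12 h, -2.13 and -1.91 after 24 h, and -1.19 and -1.28 after 48 h. The lowest Brca1 arrays were thus those at 24 h, and none overlapped MPA. The change of -1.99 ± 0.32 (adjusted p = 0.00534) was shared by a second probe set (-1.60), while the other 2 stood at -0.47 and 0.49.

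Brca2, which carries the recombinase to the break, changed by -1.46 at 24 h, with -1.93 and -0.99 in its arrays against -0.05 and 0.05 in MPA. Blm, the helicase that dissolves crossed strands, changed by -1.37, the motor protein gene Rad54b by -1.29 and the nuclease subunit gene Eme1 by -1.01, and each passed the test. The members that did not pass were Palb2, which joins Brca1 to Brca2 (-1.07, adjusted p = 0.0666), Rad54l (-0.83), the Brca1 partner Bard1 (-0.68), Rad50 (-0.66) and Nbn (-0.56) of the complex that senses broken ends, and Mus81. Mus81, the catalytic partner of Eme1, had the smallest change of the recombination genes: 0.07 and -0.07 in MPA, 0.21 and -0.14 in no MPA, 0.13 and -0.57 after 6 h, -0.31 and -0.70 after 12 h, -0.10 and -0.64 after 24 h, and -0.32 and -0.44 after 48 h. Its 24 h arrays lay below both MPA arrays, but and their mean was closer to MPA than the 24 h arrays were to each other.

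**Figure D2:**
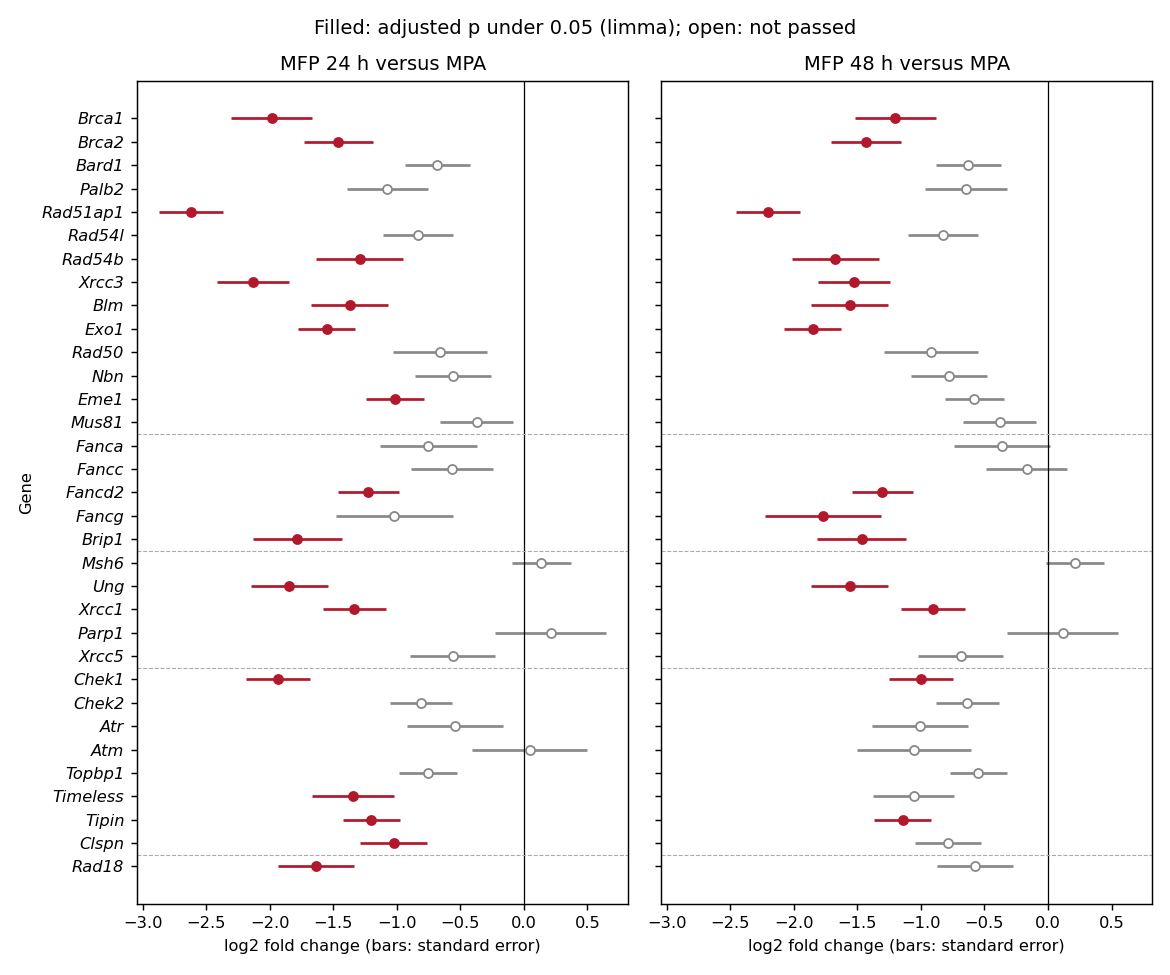
Log2 fold change of each of the 33 members against MPA at MFP 24 h (left) and MFP 48 h (right), with bars of 1 standard error (n = 2 arrays a group), genes grouped by role with dashed lines between roles. Filled points passed the test (17 at 24 h, 14 at 48 h) and all of them lie below 0; open points did not pass.

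Of the Fanconi genes, Brip1, a helicase that binds Brca1, and Fancd2, which is tagged with ubiquitin when the pathway is switched on, fell at 24 h. The Brip1 ratios were 0.21 and -0.25 in MPA, -1.05 and -0.48 in no MPA, -1.03 and -0.76 after 6 h, -1.76 and -2.86 after 12 h, -1.94 and -1.67 after 24 h, and -1.55 and -1.42 after 48 h. The 12 h arrays held its lowest value, and the no MPA arrays lay with those at 6 h, between MPA and the later times. Its 24 h change was -1.78 ± 0.35 (adjusted p = 0.0130).

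Fancd2 was at -0.01 and 0.01 in MPA, -0.54 and -0.26 in no MPA, -0.29 and -0.46 after 6 h, -0.74 and -0.49 after 12 h, -0.94 and -1.51 after 24 h, and -1.13 and -1.48 after 48 h. Its arrays were lower at each later time in their group mean, and those at 24 h and 48 h overlapped. The change was -1.22 ± 0.24 at 24 h (adjusted p = 0.0135) and was not called when all probe sets of the gene were averaged. Of the core complex genes, Fancg (-1.02), Fanca (-0.75) and Fancc did not pass at 24 h. Fancc had the smallest change of the role, -0.57, with 0.43 and -0.62 in MPA, -0.46 and -0.28 in no MPA, -0.29 and -0.25 after 6 h, -0.30 and 0.30 after 12 h, -0.68 and -0.65 after 24 h, and -0.32 and -0.20 after 48 h. Its MPA arrays were farther apart than those of any other group and spanned all others but the 24 h arrays.

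Ung removes uracil from DNA, the entry to base excision repair, and was the member with the earliest large fall. Its ratios were -0.11 and 0.10 in MPA, -0.06 and -0.97 in no MPA, -2.27 and -1.87 after 6 h, -2.61 and -2.38 after 12 h, -1.66 and -2.04 after 24 h, and -1.72 and -1.41 after 48 h. Every MFP array lay below the MPA and no MPA arrays, with the lowest at 12 h. At 24 h the change was -1.84 ± 0.30 (adjusted p = 0.00598).

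Xrcc1, the scaffold of single-strand break repair, was at 0.05 and -0.06 in MPA, -0.46 and -0.55 in no MPA, -0.03 and -0.73 after 6 h, -1.23 and -0.82 after 12 h, -1.35 and -1.32 after 24 h, and -0.91 and -0.90 after 48 h. All arrays from 12 h on lay below MPA and no MPA. The 24 h change was -1.33 ± 0.25 (adjusted p = 0.0103). Msh6, a subunit of the mismatch sensor, had values of -0.03 and 0.03 in MPA, 0.48 and -0.09 in no MPA, 0.38 and 0.02 after 6 h, -0.27 and -0.36 after 12 h, 0.22 and 0.05 after 24 h, and 0.23 and 0.19 after 48 h. It lay above MPA at 24 h and 48 h and below it at 12 h, by 0.14 (24 h), 0.21 (48 h) and -0.32 (12 h), none of which passed. Parp1, which senses breaks (0.21 at 24 h), and Xrcc5, the Ku subunit of end joining (-0.56), did not pass at any time by their representative probe set, though 1 other probe set of Parp1 fell at 12 h (-0.88 ± 0.20, adjusted p = 0.0387).

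In the checkpoint, Chek1, the kinase that Atr activates at stalled forks, was at 0.16 and -0.18 in MPA, -0.48 and -0.35 in no MPA, -0.93 and -0.69 after 6 h, -2.03 and -1.43 after 12 h, -1.75 and -2.14 after 24 h, and -1.03 and -0.98 after 48 h. In the probe set that stands for Chek1, one of the _s_at type, the 12 h and 24 h arrays were the lowest. Those at 48 h lay above them without overlap, as they did in another probe set. The 24 h change was -1.93 ± 0.25 (adjusted p = 0.00221), and 3 of the 5 probe sets of Chek1 fell. A different probe set was lowest at 48 h (-1.40 and -1.27, against -0.63 and -0.79 after 12 h). In a further one the 48 h arrays (-0.91 and -0.79) overlapped those at 12 h (-0.75 and -0.92).

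Tipin, which holds the fork together with Timeless, was at -0.08 and 0.07 in MPA, 0.09 and -0.26 in no MPA, -1.26 and -1.34 after 6 h, -1.60 and -1.77 after 12 h, -1.04 and -1.37 after 24 h, and -0.95 and -1.34 after 48 h. It was already low at 6 h, and no MFP array overlapped MPA or no MPA. At 24 h it changed by -1.20 ± 0.23 (adjusted p = 0.0105), Timeless by -1.34 and the Chek1 adaptor Clspn by -1.02, all past the test. Chek2, the kinase downstream of Atm (-0.81), the Atr activator Topbp1 (-0.76) and Atr (-0.54) did not pass, although 1 other probe set of Atr (-0.87, adjusted p = 0.0259) and 1 of Topbp1 (-0.81, adjusted p = 0.0493) did.

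Atm, the kinase that answers to broken DNA, had the smallest change of the role at 24 h, 0.05. Its values were -0.13 and 0.12 in MPA, -0.22 and -0.55 in no MPA, -0.06 and -0.68 after 6 h, 0.13 and -0.24 after 12 h, 0.07 and 0.01 after 24 h, and -0.21 and -1.91 after 48 h. In this probe set only MFP 48 h replicate 2 stood far below the rest. The other probe set of Atm did not share this, with -0.575 in replicate 1 and -0.08 in replicate 2 after 48 h. Rad18, the ubiquitin ligase that calls in bypass polymerases, had values of -0.33 and 0.27 in MPA, 0.08 and 0.03 in no MPA, -0.03 and 0.03 after 6 h, -0.32 and -1.09 after 12 h, -1.45 and -1.88 after 24 h, and -0.75 and -0.46 after 48 h. In the probe set that stands for Rad18, the 24 h arrays were the lowest, without overlap with any other group, and the 6 h arrays lay within MPA. The change at 24 h was -1.64 ± 0.30 (adjusted p = 0.00944), and all 4 probe sets of Rad18 fell. Their time courses differed. In another probe set the 24 h arrays (-1.02 and -1.42) overlapped those at 48 h (-1.09 and -1.28). A different one was lowest in a 12 h array (-1.61). In each of these the 6 h arrays lay below the MPA arrays. The remaining probe set was lowest at 24 h too.

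**Figure D3:**
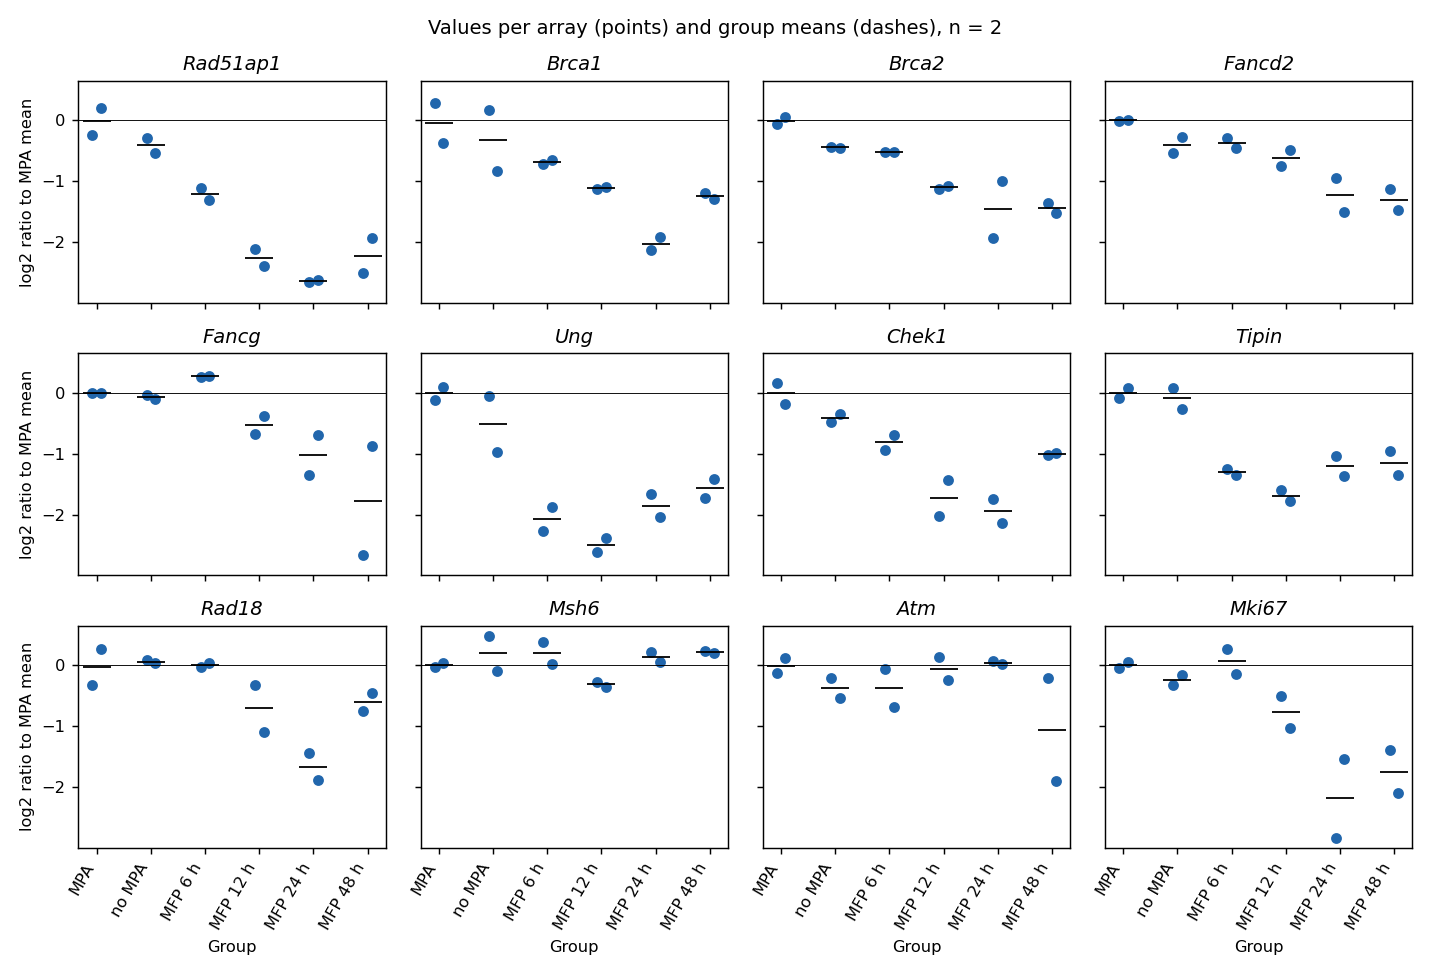
Log2 ratio to the MPA mean in every array (points) with the group mean (dash, n = 2) for 11 members and Mki67, by group. Ung and Tipin are low from 6 h, Rad51ap1 and Chek1 are lower still at 12 h, Rad18 is lowest in the 24 h arrays, and Msh6 stays between -0.36 and 0.48.

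The earliest time showed few calls. At 6 h, 2 of 33 members fell and none rose (6.06% fell; of all genes 0.942% fell, 0.314% rose and 1.26% did either): Ung by -2.06 ± 0.30 (adjusted p = 0.0192) and Tipin by -1.30 ± 0.23 (adjusted p = 0.0283). Both calls were lost when any 1 of the 4 arrays compared was left out, and when only these arrays were fitted. The members' median was -0.37 (all genes 0.02), and 29 of 33 lay below 0 (87.9%, against 47.5% of all genes).

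At 12 h, 11 of 33 fell and none rose (33.3% fell; of all genes 2.62% fell, 1.66% rose and 4.28% did either), with a median of -0.73 (all genes 0.01). Rad51ap1 changed by -2.24 ± 0.25 (adjusted p = 0.00577), Ung by -2.49 ± 0.30 (adjusted p = 0.00586), Tipin by -1.69 ± 0.23 (adjusted p = 0.00765) and Exo1 by -1.58 ± 0.23 (adjusted p = 0.00793). The other members that fell were Brip1 (-2.29), Blm (-1.95), Chek1 (-1.72), Xrcc3 (-1.37), Clspn (-1.13), Xrcc1 (-1.02) and Eme1 (-0.98). By role these were 5 recombination genes, 1 Fanconi gene, 2 excision genes and 3 checkpoint genes. The count was 4 to 6 with any 1 of the 4 arrays left out, 4 after quantile normalization and 0 when only the arrays of MFP 12 h and MPA were fitted.

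At 48 h, 14 of 33 fell and none rose (42.4% fell; of all genes 6.02% fell, 6.48% rose and 12.5% did either), with a median of -0.92 (all genes 0.00). Rad51ap1 changed by -2.20 ± 0.25 (adjusted p = 0.00233), Exo1 by -1.85 ± 0.23 (adjusted p = 0.00308), Fancd2 by -1.30 ± 0.24 (adjusted p = 0.0100) and Xrcc3 by -1.53 ± 0.28 (adjusted p = 0.0101). The others were Rad54b (-1.67), Blm (-1.56), Ung (-1.56), Brip1 (-1.47), Brca2 (-1.43), Brca1 (-1.20), Tipin (-1.14), Chek1 (-1.0), Xrcc1 (-0.90) and Fancg. Fancg stood at -2.67 and -0.88 after 48 h, against 0.00 and 0.00 in MPA, so its change of -1.77 ± 0.46 (adjusted p = 0.0329) was carried mostly by replicate 1, and its other probe set was at -0.37. The same array, MFP 48 h replicate 1, also stood apart in 15 skeletal muscle genes (median 4.24, against 0.12 in replicate 2); the part of this in the Fancg value was not tested. The count was 3 without MPA replicate 1 (Rad51ap1, Exo1 and Blm kept the call), 7 with either MFP 48 h array left out (Atm fell without replicate 1), 0 after quantile normalization and 0 with only the arrays compared.

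Over the 4 times, 18 members fell at least once (8.38% of all genes did) and 15 at none. The 12 h, 24 h and 48 h groups all showed a fall in 9 members (1.18% of all genes), and Ung and Tipin fell at all 4 times (0.385% of all genes). No member that fell at 12 h failed to pass at 24 h. The 6 that passed at 24 h and not at 12 h were Brca1, Brca2, Rad54b, Fancd2, Timeless and Rad18. Eme1, Clspn, Timeless and Rad18 passed at 24 h and not at 48 h, and Fancg at 48 h only. In 16 of 33 members all 8 MFP arrays lay below both MPA arrays, as they did in 8.73% of all genes. The group mean was lowest in the 24 h group for 14 members, the 12 h group for 9, the 48 h group for 8 and the 6 h group for 2.

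Between successive MFP times no member passed the test. From 6 h to 12 h, 0 genes of the whole array passed (percent called 0), and 10 members had an unadjusted limma p under 0.05, all lower at 12 h (30.3% of the members; 3.69% of all genes were lower by this measure and 7.41% differed either way). The smallest p was that of Rad51ap1 (-1.04 ± 0.25, adjusted p = 0.377). From 12 h to 24 h, 4 members (Rad18, Brca1, Xrcc3 and Fancd2) were lower at an unadjusted p under 0.05, which is 12.1% of the members, where 7.59% of all genes were lower and 15.8% differed either way. None of them passed (of all genes 0.584% fell, 1.96% rose and 2.54% did either); Rad18 had the smallest p (-0.96 ± 0.30, adjusted p = 0.144). From 24 h to 48 h, Chek1, Rad18 and Brca1 were higher and Atm was lower at an unadjusted p under 0.05, a share of 12.1% that is below the 14.1% of all genes. None of them passed (of all genes 1.72% fell, 0.622% rose and 2.35% did either), with the smallest p for Chek1, higher at 48 h by 0.94 ± 0.25 (adjusted p = 0.102). With the mean of all probe sets, limma gave smaller changes for this step. They were 0.36 for Chek1 (adjusted p = 0.414), 0.38 for Rad18 (adjusted p = 0.295) and 0.42 for Brca1 (adjusted p = 0.410). In this last step Atm fell with MFP 48 h replicate 1 left out, and Fancg with replicate 2 left out.

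In the trend over time, the slope on log2 hours in the 8 MFP arrays, 3 of 33 members fell and none rose (9.09% fell; of all genes 4.39% fell, 6.82% rose and 11.2% did either). Rad54b changed by -0.50 ± 0.11 per unit of log2 hours (adjusted p = 0.0159), Fancg by -0.66 ± 0.15 (adjusted p = 0.0236) and Fancd2 by -0.34 ± 0.08 (adjusted p = 0.0269). Rad54b ran from 0.05 and -0.44 after 6 h over -0.45 and -1.02 after 12 h and -1.79 and -0.81 after 24 h to -1.73 and -1.63 after 48 h. With MFP 6 h replicate 1 left out 0 passed, and with replicate 2 of that group left out 1, Rad54b, did. Fancg and Rad54b lost the call without MFP 48 h replicate 1, and Fancd2 lost it without replicate 2 of that group.

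In saline-treated tumours labelled no MPA, none of the 33 members passed limma's test against MPA (0 of all genes did), and 1 member, Xrcc3, had an unadjusted p under 0.05 (-0.88 ± 0.28, adjusted p = 0.665), a share of 3.03% against 6.57% of all genes. The members' median was -0.28, against 0.01 over all genes, and 28 of 33 lay below 0 (84.8%, against 49% of all genes). With the mean of all probe sets of a gene the members' median was -0.17, and 26 lay below 0. Against no MPA, 9 of 33 members fell at 48 h of MFP and none rose (27.3% fell; of all genes 5.03% fell, 7.49% rose and 12.5% did either), with a median of -0.70 (all genes -0.04).

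Exo1 changed in that comparison by -1.81 ± 0.23 (adjusted p = 0.00221), Rad51ap1 by -1.81 ± 0.25 (adjusted p = 0.00280), Tipin by -1.06 ± 0.23 (adjusted p = 0.0143) and Rad54b by -1.30 ± 0.34 (adjusted p = 0.0342). Fancg (-1.70), Blm (-1.13), Ung (-1.05), Brca2 (-0.99) and Fancd2 (-0.90) also fell. Of the 14 members that fell against MPA, Xrcc3, Brip1, Chek1, Brca1 and Xrcc1 did not pass against no MPA; whether the 2 comparisons differ for them was not tested. The count was 2 to 5 with any 1 of the 4 arrays left out, 5 with only these arrays and 1 after quantile normalization.

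Other genes of the same pathways were read from fixed lists. Of 24 other recombination and Fanconi genes measured, 4 fell at 24 h (median -0.56): Fancm, the remodelling helicase that anchors the core complex (-1.81 ± 0.20, adjusted p = 0.000992), the junction nuclease gene Gen1 (-2.06), the ubiquitin-conjugating gene Ube2t (-2.13) and Fanci, the partner of Fancd2. These are 16.7% of the list, against 4.20% of all genes. The same 4 fell at 48 h (6.02% of all genes did), with a median of -0.40. Of 24 other mismatch, excision and end joining genes, Pms1 (-1.33) and Pms2 fell at 24 h (8.33%, against 4.20% of all genes, median -0.29). At 48 h Pms1 fell, a share of 4.17% that is below the 6.02% of all genes. The excision nuclease gene Ercc1 rose at 48 h by 1.03 ± 0.24 (adjusted p = 0.0213), where 6.48% of all genes rose.

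Of 24 other checkpoint and fork genes, 7 fell at 24 h (median -0.61), led by the bypass polymerase gene Polh (-1.44) and the phosphatase genes Cdc25b (-1.11) and Cdc25c (-2.13), and 7 at 48 h (median -0.54), led by the clamp loader gene Rad17 (-1.11), Wdhd1 (-1.48) and the cohesin gene Smc1a (-1.06). Each count of 7 is 29.2% of the list, against 4.20% (24 h) and 6.02% (48 h) of all genes. At 12 h the 3 lists held 1, 3 and 3 falls (4.17%, 12.5% and 12.5%, against 2.62% of all genes). At 6 h they held 0, 2 and 0 (8.33% for the 2, against 0.942% of all genes). The 2 at 6 h were Apex1, the nuclease that acts after Ung (-1.42), and Pms1 (-1.31). None of these genes rose at 6 h, 12 h or 24 h.

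**Figure D4:**
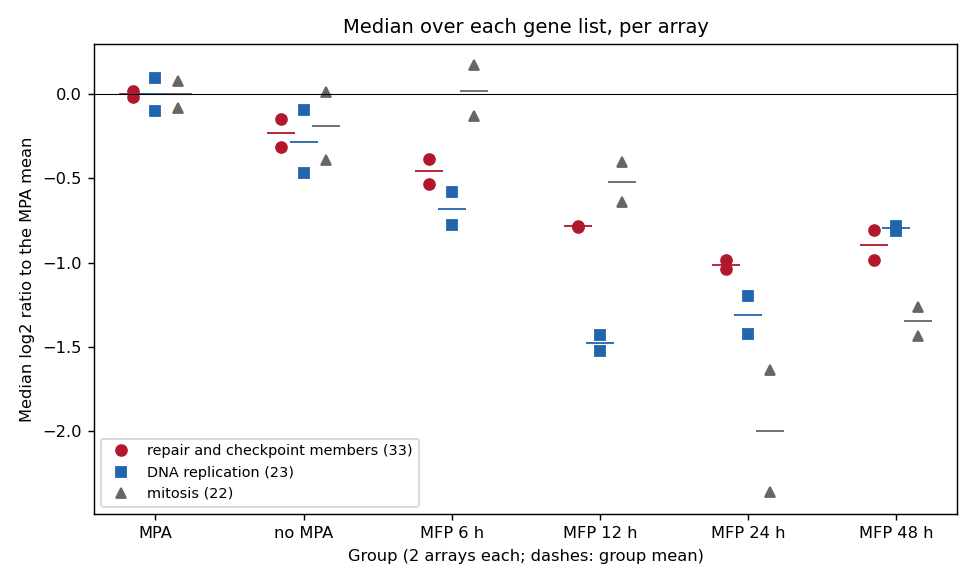
Median log2 ratio to the MPA mean over the 33 members, 23 DNA replication genes and 22 mitosis genes in each array (points), with the group mean as a dash. The members' median lies lowest at 24 h (-1.04 and -0.99), the replication list is lowest at 12 h and the mitosis list at 24 h.

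Lists of proliferation genes also fell under MFP, on time courses that differed from that of the members. Of 23 DNA replication genes 14 fell at 12 h (median -1.36), 14 at 24 h (-1.22), 6 at 48 h (-0.83) and 1 in the 6 h group. As shares of this list these were 4.35% (6 h), 60.9% (12 h), 60.9% (24 h) and 26.1% (48 h). The matching shares over all genes were 0.942% (6 h), 2.62% (12 h), 4.20% (24 h) and 6.02% (48 h). Of 22 mitosis genes, 0 fell at 6 h (median 0.08, against -0.37 for the members). At later times 1 fell at 12 h (4.55%, median -0.50), 20 at 24 h (90.9%, median -1.96) and 14 at 48 h (63.6%, median -1.38). From 12 h to 24 h the median change was -1.41 for mitosis genes, 0.14 for replication genes and -0.16 for the members. Mki67, the usual marker of cycling cells, was at -0.05 and 0.05 in MPA, 0.27 and -0.14 after 6 h, -0.51 and -1.02 after 12 h, -2.83 and -1.53 after 24 h, and -1.40 and -2.10 after 48 h. Mki67 did not pass at 12 h (-0.77 ± 0.40, adjusted p = 0.354), when 11 of the members had passed, and fell at 24 h (-2.18 ± 0.40, adjusted p = 0.00917). How much of the members' change goes with the number of cycling cells was not tested.

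Markers of other cell types also moved. Of 15 macrophage genes, 4 rose at 24 h and 12 at 48 h. Of 15 fibroblast genes, 3 rose at 24 h and 13 at 48 h. Of 16 genes of luminal epithelium, 5 fell (31.2%) and 1 rose at 48 h. Over all genes 4.55% rose at 24 h, and 6.48% rose and 6.02% fell at 48 h. The 2 MPA arrays, which all comparisons with MPA share, differed on these lists, with medians of -0.81 and 0.52 for macrophage, -0.90 and 0.55 for fibroblast and 0.87 and -2.55 for liver genes. Liver genes rose at 24 h, 17 of 20, with array medians of 3.54 and 4.14, and pancreas genes had medians of 6.16 and 4.47 after 6 h, 0.20 and 0.87 after 12 h, 0.72 and 6.82 after 24 h, and 4.71 and 5.57 after 48 h. At 12 h no macrophage, fibroblast, liver or pancreas gene of these lists passed the test, and 3 luminal genes rose (1.66% of all genes did). The median changes at 12 h were 0.23 for macrophage, -0.16 for fibroblast, -0.84 for liver (17 of 20 below 0) and 0.80 for pancreas genes. Of all genes 48.4% lay below 0 at 12 h. With 2 arrays a group and MPA arrays this far apart, a missing call does not show that a list was unchanged. The 3′ minus 5′ difference of the Actb control probe sets was -0.07 and 0.05 in MPA, 0.34 and 0.36 after 12 h, 0.35 and 0.50 after 24 h, and 0.47 and 0.59 after 48 h, and that of Gapdh was 0.16 and -0.12 in MPA, 0.28 and 0.28 after 12 h, 0.42 and 0.55 after 24 h and 0.48 and 0.36 after 48 h. The part of these in the members' changes was not tested.

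**Figure D5:**
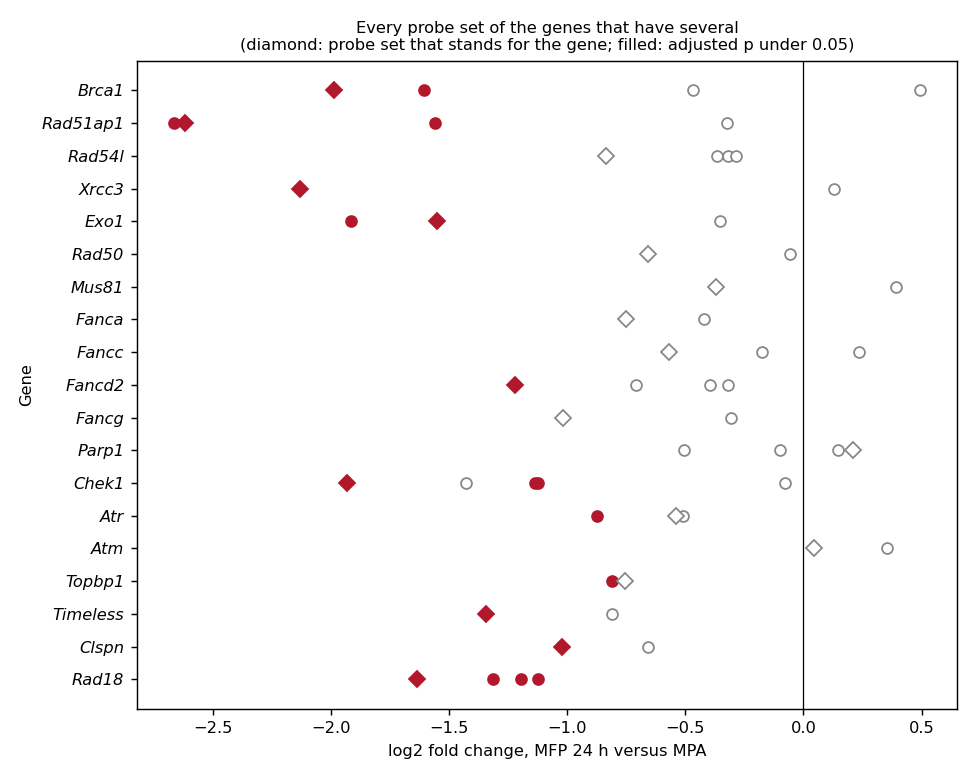
Log2 fold change at MFP 24 h against MPA of every probe set of the 19 members that have several, with a diamond for the one that stands for the gene and filled marks for those that fell. All 4 probe sets of Rad18 fell, while those of Brca1, Xrcc3, Mus81, Fancc and Parp1 lie on both sides of 0.

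Fitted probe set by probe set, 28 of the 70 fell at 24 h and none rose, and 61 lay below 0. Of all 34945 probe sets 6.97% rose or fell, and the share that fell was not counted apart. Of the 19 genes with several probe sets, 11 had at least 1 that fell, 5 at least 2, and Rad18 alone had all of them. In 5 genes the probe sets lay on both sides of 0. The matching shares over all genes with several probe sets were not counted. With the mean of all probe sets in place of the most variable one, Topbp1 was called at 24 h and the members' median was -0.84. Fancd2 was then called in none of the comparisons in which it is given as fallen: 24 h (-0.66, adjusted p = 0.0705), 48 h (-0.63, adjusted p = 0.0705), 48 h against no MPA (-0.55, adjusted p = 0.105) and the trend (-0.22, adjusted p = 0.0561). Under that choice the Brca1 change was -0.89 at 24 h (adjusted p = 0.0285) and -0.47 at 48 h (adjusted p = 0.185), and the Xrcc3 change was -1.0 at 24 h (adjusted p = 0.0158) and -0.67 at 48 h (adjusted p = 0.0627). At 12 h Xrcc3 and Clspn lost the call under it while Brca2, Topbp1 and Rad18 gained it, and at 48 h Timeless and Rad18 gained it.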

How the data were processed

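Affymetrix whole-genome mouse arrays of 12 tumour samples were read from the deposited table of log2 values. Per the submitters' processing notes the authors used GCRMA, which corrects background and summarises probes (no version named). The deposited log2 values are ratios: the linear values of the 2 MPA arrays averaged 1 within 0.0001 in 45099 of 45101 probe sets. No source states that step, and it leaves no level to filter on. Groups came from the source names. Probe sets with 1 gene symbol (34945) gave 18161 genes, and the one with the largest SD over all arrays stood for its gene. Tests used limma 3.58.1 in R 4.3.3 on 1 model of 6 group means (6 residual degrees of freedom), with p-values adjusted by Benjamini-Hochberg across all genes and a threshold of 0.05. By the rule for named genes, full test values are given for up to 4 members per direction in a comparison with the smallest p, and per-array values for the 2 members of each role with the smallest p at 24 h and the 1 with the smallest change there. Beyond it, called members shown by array also have full test values at 24 h, and Brca1, Brca2, Exo1, Fancg and Rad54b were shown by array after their values were seen, Fancg with full values at 48 h. The members and lists were chosen with earlier results of these data known. Promoter windows are RefSeq's (GRCm38.p6). On simulated data for MFP 24 h versus MPA (18161 genes), 22.7% of log2 changes of 1, 81.2% of 2 and 93.9% of 3 were recovered, and 4.46% of calls were false. The simulation used independent normal noise, with 1 spread per gene in all groups, and lowered a small part of the genes. These rates hold for that setting only and do not give the share of false calls in the tumour data. Alternatives were the mean of all probe sets, every probe set on its own, centring, quantile normalization, array weights, the compared groups alone, and each array left out.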

Additional observations from a re-analysis of the deposited data

Results flagged for a closer look

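For 3 of the 33 members (9.09%), the values differed between the MFP times by a test of that difference. The test was the slope on log2 hours over the 8 MFP arrays (limma, adjusted over all genes). By it 4.39% of all genes fell, 6.82% rose and 11.2% did either. Rad54b had a slope of -0.50 per unit of log2 hours, Fancd2 of -0.34 and Fancg of -0.66. In Fancg, MFP 48 h replicate 1 was at -2.67 and replicate 2 at -0.88. Without MFP 6 h replicate 1 none of the 3 passed. With the mean of all probe sets of the gene, the Fancd2 slope was -0.22 (adjusted p = 0.0561).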

How the results depend on the processing

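Of 113 counts of members called under alternatives, 82 lay within 1.5 times the count reported and 31 did not. After quantile normalization the members called numbered 1 (6 h), 4 (12 h), 1 (24 h) and 0 (48 h) against MPA, and 1 (48 h) against no MPA. With only the arrays of the groups compared, they numbered 0 (6 h), 0 (12 h), 2 (24 h) and 0 (48 h), and 5 against no MPA. With each array left out in turn the counts were 0 to 0 at 6 h, 4 to 6 at 12 h, 10 to 16 at 24 h, 3 to 11 at 48 h, 2 to 5 for 48 h against no MPA, 0 to 1 for 48 h against 24 h and 0 to 4 for the trend. Leaving out 1 array gives a group a single sample, assumed to vary like the other groups. No member was called as risen against MPA or no MPA under any of these. In the trend 1 was, under quantile normalization, without probe sets ending in _s_at or _x_at (an alternative chosen after seeing the data) and with every probe set fitted on its own. Of 259 values of named members under alternatives, 200 kept direction and side of the threshold, 56 kept direction and lost the call, and 3 reversed: without probe sets ending in _s_at or _x_at, Xrcc3 was at 0.13 at 24 h, 0.19 at 48 h and 0.071 in no MPA, each against MPA. No paired analysis was possible because the labels give no replicate numbers that pair the arrays. Ratios leave signal over background unknown, so a probe set near background cannot be set apart.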
